A study of Mus musculus with 6 samples.

Results

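Meiotic entry and prophase transcription factors, a set of 10 genes out of the 54532 in the deposited count table, were examined in spermatocytes lacking eEF1G. They were selected by gene symbol alone, Stra8 and Meiosin as factors of meiotic entry. Mybl1, Tcfl5, Taf4b, Taf7l, Rfx2, Crem, Sox30 and Tbpl1 were grouped here as factors of prophase or of the later germ cell programme. Meiosin is listed in the table as Gm4969. RNA was measured by RNA-seq in leptotene/zygotene (L/Z) spermatocytes, the cells of early meiotic prophase I, isolated from mouse testes at 12 days postpartum (dpp) by Hoechst staining and fluorescence-activated cell sorting (FACS). There were 3 control and 3 Eef1g-cKO libraries. Eef1g encodes eEF1G, 1 of the subunits of the elongation complex eEF1, and in Eef1g-cKO males floxed exons of the gene were removed in male germ cells by Stra8-GFPCre, a Cre that acts from the spermatogonial stage onwards. Controls were littermates, labelled wild type, and whether they carried the Cre or floxed alleles is not given in the sources used here. The number of animals behind each library is likewise not given, so p-values measure the spread between these libraries. Because Cre expression is driven by Stra8 sequence, and the sources used here do not describe whether the driver carries transcribed Stra8 sequence or alters the Stra8 locus, reads of the endogenous gene and of the driver cannot be told apart.

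In the male germ line, retinoic acid induces Stra8, and STRA8 acts with its partner MEIOSIN at promoters of genes for the chromosome axis, synapsis and recombination. A-MYB, the product of Mybl1, then drives a large part of the pachytene programme, including the precursors of pachytene piRNAs, and the bHLH factor TCFL5 acts with it. TAF4B, TAF7L and TBPL1 are relatives of components of the general transcription machinery with roles in germ cells. RFX2, SOX30 and CREM activate genes of late spermatocytes and spermatids.

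The promoters of Stra8 and Taf7l, the member that fell and the tested member with the smallest adjusted p, are printed here from RefSeq on the GRCm38.p6 assembly, from 250 bases before to 50 bases after the annotated start, read 5′ to 3′ on the strand of the gene. The Stra8 window is chr6:34920698-34920997 on the plus strand, and it lies inside the gene span of the count table. Its capitals mark AGGTCA, the core recognition letters of nuclear receptors such as the retinoic acid receptors. The Taf7l window is chrX:134476441-134476740 on the minus strand, and its capitals mark CACGTG, an E-box of the type that bHLH proteins bind.
Stra8: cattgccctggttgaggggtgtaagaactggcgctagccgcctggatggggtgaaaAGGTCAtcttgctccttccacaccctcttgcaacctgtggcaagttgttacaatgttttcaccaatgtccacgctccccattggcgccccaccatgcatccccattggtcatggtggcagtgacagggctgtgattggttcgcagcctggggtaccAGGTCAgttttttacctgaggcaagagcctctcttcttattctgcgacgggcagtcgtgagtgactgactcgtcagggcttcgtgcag
Taf7l: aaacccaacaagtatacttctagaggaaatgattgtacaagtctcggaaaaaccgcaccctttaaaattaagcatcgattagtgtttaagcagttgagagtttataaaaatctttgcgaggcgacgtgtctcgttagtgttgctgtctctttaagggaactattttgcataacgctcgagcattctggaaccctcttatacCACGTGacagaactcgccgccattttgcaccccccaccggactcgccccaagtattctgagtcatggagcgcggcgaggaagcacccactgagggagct
AGGTCA was found at 194 and at 38 bases before the Stra8 start. Over 32851 RefSeq promoter windows of this length, searched on both strands, 16.3% held AGGTCA at least once and 1.81% held it 2 or more times. CACGTG was found at 49 bases before the Taf7l start and in 7.15% of all windows. Promoter windows were at hand for 6 of the 10 members, also including Tcfl5, Tbpl1, Sox30 and Rfx2. CNCCTCAG, letters associated with STRA8 binding, were present in 7.94% of all windows and in those of Tcfl5 and Rfx2, on the minus strand at 49 and at 74 bases before the start. AACNGTT, a MYB motif, was present in the Rfx2 window at 120 bases before the start and in 4.45% of all windows. GTTGCC, core letters of the RFX site that overlaps this MYB match, was present in the Rfx2 window at 116 bases before the start and in 12.5% of all windows. TGACGTCA, the CREM recognition element, was in none of the 6 windows, which do not include that of Crem, and in 1.79% of all windows. These matches are descriptions of the letters and no binding was measured.

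Library totals ran from 763133 to 2617648 reads, so that the floor of 3 reads corresponded to 1.18 to 4.63 CPM (counts per 1000000 reads of the TMM-scaled library). The smallest library, Eef1g-cKO replicate 3, also had the highest share of ribosomal RNA reads, 9.23%, and stood apart from the other Eef1g-cKO libraries on the second principal component. Eef1g itself fell, with a log2 fold change of −0.68 (SE 0.20) and an adjusted p of 0.029 in edgeR. The label of the cells was checked against markers. L/Z markers were abundant in every library, with a summed level of 7667 to 8656 CPM in control libraries and 16166 to 20881 CPM in Eef1g-cKO, and 4 of the 10 rose and none fell. Of 14 markers of spermatogonia, 7 were tested, 6 fell and 1 rose, and their summed level was 1661 to 1878 CPM in control libraries and 928 to 1135 CPM in Eef1g-cKO. Peritubular and stromal markers summed to 192 to 322 CPM in control libraries and 23.2 to 79.2 CPM in Eef1g-cKO, and Sertoli cell markers to 87.8 to 315 and 1.54 to 52.6 CPM. Pachytene and later markers summed to 49.9 to 65.6 CPM in control libraries and 4.63 to 28.3 CPM in Eef1g-cKO, with Acr and Acrv1 at 0 in all 6 libraries. Leydig cell markers were at 8.40 to 10.7 and 1.57 to 6.47 CPM, with Cyp17a1 and Hsd3b1 at 0, and blood cell markers were at 6.72 to 86.2 and 3.53 to 81.9 CPM. Each sum weighs abundant genes most. Highest on average were Sycp1 among L/Z markers, Dmrt1 among spermatogonia markers, Dcn among stromal markers and Clu among Sertoli cell markers. The part of these shifts in marker levels in the results below was not tested. In bulk RNA, more cells of a type and more RNA per cell cannot be told apart.

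Of the 10 members, 8 had enough reads to be tested. Mybl1, Taf4b, Taf7l and Crem rose in Eef1g-cKO L/Z spermatocytes, Stra8 fell, and Tcfl5, Sox30 and Tbpl1 did not pass the threshold. A gene was called when its p from the quasi-likelihood test of edgeR, adjusted over all 8513 tested genes by the Benjamini-Hochberg method, was under 0.05. Among all tested genes, 7.8% were called higher and 6.01% lower, 13.8% in all, against 4 and 1 of the 8 tested members. The genes called higher and lower numbered 664 and 512, but 463 and 639 under upper-quartile scaling and 333 and 643 under library totals alone, where the same 3 members, Mybl1, Taf7l and Crem, were higher and Stra8 was lower. With an absolute log2 fold change over 1 required as well, Mybl1, Taf7l and Crem remained higher and no member remained lower, and the shares of all tested genes were 3.42% higher and 4.96% lower. The median log2 fold change was 0.71 over the 8 tested members and −0.05 over all tested genes. In 5 of the 8 members every Eef1g-cKO library lay above every control library, and in 1 every Eef1g-cKO library lay below. Among all tested genes these shares were 16.4% and 18.1%, 34.5% in all.

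**Figure D1:**
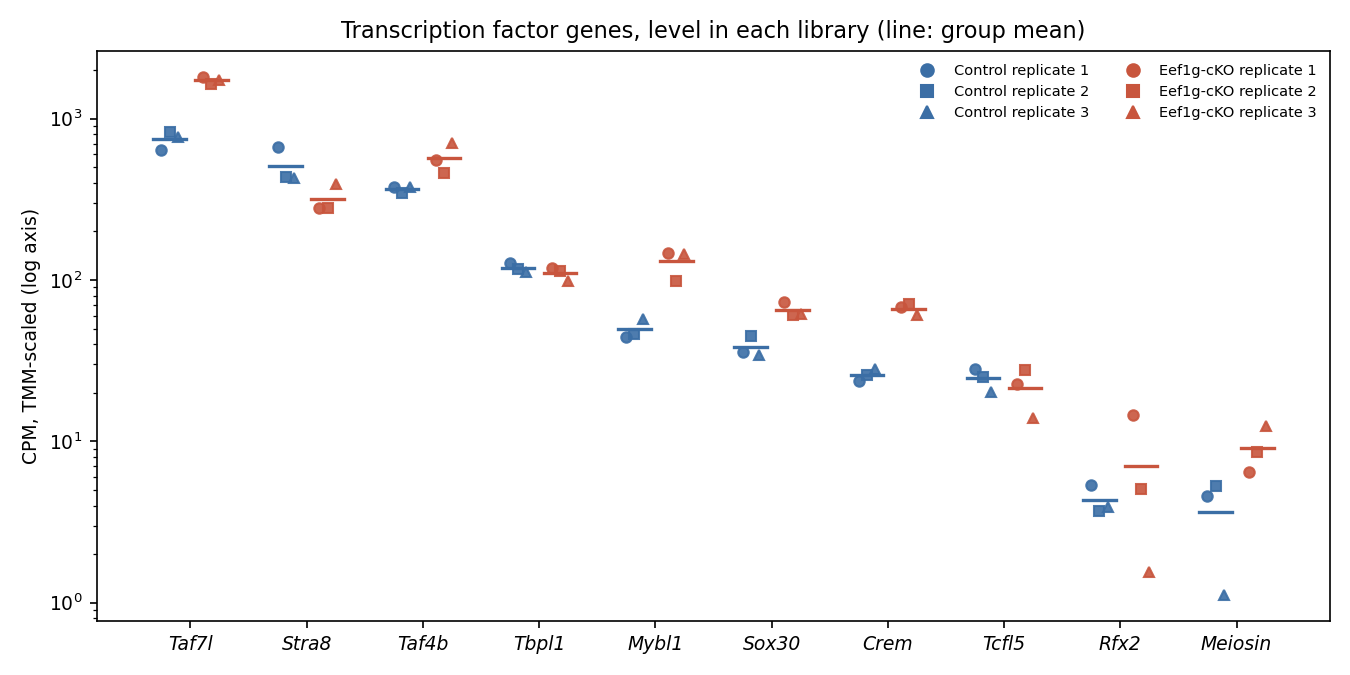
CPM (TMM-scaled, log axis) of each of the 10 members in each library, with control in blue, Eef1g-cKO in red, marker shape for the replicate number and a line at the group mean. Taf7l, Mybl1, Crem, Taf4b and Sox30 separate upwards in Eef1g-cKO and Stra8 separates downwards, whereas the points of Tbpl1, Tcfl5 and Rfx2 overlap between genotypes.

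Levels were compared between members. Expressed per gene length as FPKM (reads per kilobase of gene length per 1000000 TMM-scaled reads), Taf7l and Stra8 led in control libraries, at 332 ± 41.1 and 282 ± 74.4 FPKM (SD, n = 3), and their ranges overlapped. Taf4b followed at 70.9 FPKM, Tbpl1 at 36.2, Sox30 at 12.8, Mybl1 at 9.14, Tcfl5 at 7.75 and Crem at 4.38. Meiosin and Rfx2 closed the order at 0.777 and 0.590 FPKM. Besides the leading pair, the ranges of Mybl1 and Tcfl5 and those of Meiosin and Rfx2 overlapped, and all other neighbours were apart. In Eef1g-cKO libraries Taf7l, at 772 FPKM, lay above Stra8, at 175 FPKM, in every library, and Taf4b reached 111 FPKM. Mybl1 stood before Sox30, at 24.1 and 21.7 FPKM with overlapping ranges, and Crem, at 11.3 FPKM, stood before Tcfl5, at 6.78 FPKM.

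Stra8 is the gene by which retinoic acid starts meiosis. It spans chromosome 6, plus strand, from 34920163 to 34939344 in GRCm38 (ENSMUSG00000029848). It received 869, 831 and 761 reads in control replicates 1 to 3 and 346, 709 and 253 reads in Eef1g-cKO replicates 1 to 3. These corresponded to 663, 436 and 426 CPM in control libraries and 280, 278 and 391 CPM in Eef1g-cKO. The groups did not overlap, Eef1g-cKO being lower, control replicate 1 was the highest, and the nearest libraries of the groups, control replicate 3 and Eef1g-cKO replicate 3, differed little. The mean fell from 509 ± 134 to 316 ± 64.6 CPM (SD, n = 3), 1.62-fold, with a log2 fold change of −0.69 (SE 0.20, 95% interval −1.11 to −0.27) and an adjusted p of 0.0265 in edgeR. The call was lost without control replicate 1, where the log2 fold change was −0.44 and the edgeR adjusted p 0.223, and without Eef1g-cKO replicate 1 or 2, with adjusted p of 0.12 and 0.0884. It was also lost with an offset for GC content, at −0.45 and an adjusted p of 0.158.

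Meiosin (ENSMUSG00000085601, chromosome 7, 19099046 to 19118368, minus strand), the partner of Stra8, was close to the floor of detection. Its reads were 6, 10 and 2 in control and 8, 22 and 8 in Eef1g-cKO, or 4.58, 5.25 and 1.12 CPM against 6.47, 8.63 and 12.4 CPM. The Eef1g-cKO libraries lay above the control libraries, but the gene did not pass the filter on low counts and was not tested with the others. When all 22130 genes with a read were fitted, its log2 fold change was 1.33 (SE 1.06) with an edgeR adjusted p of 0.503. A difference was thus not detectable at this depth.

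Mybl1 encodes A-MYB and lies on the minus strand of chromosome 1 from 9667415 to 9700209 (ENSMUSG00000025912). Its reads were 58, 88 and 103 in control and 181, 252 and 94 in Eef1g-cKO, which corresponded to 44.3, 46.2 and 57.7 CPM and to 146, 98.8 and 145 CPM. The groups were well apart, and the lowest Eef1g-cKO library, replicate 2, was also the deepest. The mean rose 2.61-fold, from 49.4 ± 7.24 to 130 ± 27.1 CPM (SD, n = 3), with a log2 fold change of 1.38 (SE 0.28, 95% interval 0.80 to 1.97) and an edgeR adjusted p of 0.0028. Mybl1 passed the threshold in all 18 other fits made, 12 with another scaling, filter, test or term and 6 without 1 library, with log2 fold changes of 1.05 to 1.57.

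Tcfl5 (ENSMUSG00000038932, chromosome 2, 180621956 to 180642708, minus strand), which acts with A-MYB, showed no detectable difference. Its CPM values were 28.2, 25.2 and 20.2 in control and 22.6, 27.8 and 13.9 in Eef1g-cKO, and the lowest rested on 9 reads. The groups overlapped, and the log2 fold change was −0.15 (SE 0.47, 95% interval −1.14 to 0.84; edgeR adjusted p 0.873). A change within this interval was not detectable at this depth. The direction turned without Eef1g-cKO replicate 3, where the log2 fold change was 0.089, and with the GC content offset, where it was 0.27. Tcfl5 shares 234 bases with Col9a3 on the opposite strand, a gene that received 0 to 5 reads per library.

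Taf7l is an X-linked gene for a germ cell version of the TFIID subunit TAF7, on the minus strand from 134460118 to 134476490 (ENSMUSG00000009596). It received 841, 1562 and 1380 reads in control and 2249, 4202 and 1120 in Eef1g-cKO, the most of any member in Eef1g-cKO. Its levels were 642, 820 and 772 CPM in control libraries and 1819, 1648 and 1730 CPM in Eef1g-cKO. All 3 Eef1g-cKO libraries, the shallow replicate 3 included, were about the same, and all lay far above the highest control library. The mean rose 2.32-fold, from 745 ± 92.2 to 1732 ± 85.6 CPM (SD, n = 3), with a log2 fold change of 1.22 (SE 0.14, 95% interval 0.92 to 1.52) and an edgeR adjusted p of 2.45e-05. Taf7l passed the threshold in all 18 other fits, with log2 fold changes of 1.02 to 1.30.

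Taf4b, which encodes the germ cell version of the TFIID subunit TAF4, spans chromosome 18, plus strand, from 14783245 to 14900359 (ENSMUSG00000054321). Its levels were 374, 346 and 375 CPM in control libraries and 555, 458 and 707 CPM in Eef1g-cKO. The control libraries were close together and the Eef1g-cKO libraries spread more widely above them, with the shallow replicate 3 highest. The mean rose 1.56-fold, from 365 ± 16.2 to 573 ± 126 CPM (SD, n = 3; log2 fold change 0.64, SE 0.17, 95% interval 0.28 to 1.01), with an edgeR adjusted p of 0.0184. The call was lost without control replicate 1, 2 or 3, with edgeR adjusted p of 0.061, 0.088 and 0.0653, while the log2 fold changes, 0.67, 0.62 and 0.66, were about as large. It was also lost under upper-quartile scaling (0.0545) and library totals alone (0.0985), which moved the median of all genes by −0.12 and −0.19. Relative to that median, the log2 fold change of Taf4b was 0.69 in the reported fit, 0.69 under upper-quartile scaling and 0.68 under library totals. The annotation places a pseudogene, AC133172.1, on the same strand within Taf4b, with 1349 shared bases, so the origin of reads in that stretch is uncertain.

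Tbpl1 encodes a TBP-like factor that is required for spermatid development, and lies on the minus strand of chromosome 10 from 22703879 to 22731938 (ENSMUSG00000071359). Its levels were 127, 117 and 111 CPM in control libraries and 118, 113 and 98.9 CPM in Eef1g-cKO. The groups overlapped, with means of 118 ± 7.74 and 110 ± 10.004 CPM (SD, n = 3). The log2 fold change was −0.10 (SE 0.23, 95% interval −0.58 to 0.39; edgeR adjusted p 0.832), and without Eef1g-cKO replicate 3 it was 0.0024. The upper end of this interval lies below the estimates for Mybl1, Crem, Taf7l and Taf4b, although the differences between genes were not tested.

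Crem, whose activator isoforms drive spermatid genes and whose other isoforms repress them, lies on the minus strand of chromosome 18 from 3266048 to 3337748 (ENSMUSG00000063889). Counts per gene add up all isoforms. It received 31, 49 and 50 reads in control and 84, 182 and 39 in Eef1g-cKO, or 23.7, 25.7 and 28.0 CPM against 67.9, 71.4 and 60.2 CPM. Libraries were close together within each genotype and far apart between them. The mean rose 2.58-fold, from 25.8 ± 2.16 to 66.5 ± 5.69 CPM (SD, n = 3), with a log2 fold change of 1.37 (SE 0.34, 95% interval 0.66 to 2.08) and an edgeR adjusted p of 0.0112. Of the 18 other fits, 17 passed the threshold, and the exception was the fit without control replicate 2, where the edgeR adjusted p was 0.0517. Without that library only Mybl1 and Taf7l, 2 of the 4 members, were called higher. Crem shares 1069 bases with Gm6225 on the opposite strand, which received 0 to 5 reads per library.

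Sox30 (ENSMUSG00000040489, chromosome 11, 45980310 to 46017994, plus strand) encodes an HMG-box activator of postmeiotic genes. Its levels were 35.9, 44.6 and 34.1 CPM in control libraries and 72.8, 60.8 and 61.8 CPM in Eef1g-cKO. Each Eef1g-cKO library was above each control library, with means of 38.2 ± 5.62 and 65.1 ± 6.66 CPM (SD, n = 3). The log2 fold change of 0.77 (SE 0.32, 95% interval 0.09 to 1.44) did not pass the adjustment, at an edgeR adjusted p of 0.125. Among the 18 other fits, the threshold was passed in 1, with the GC content offset, where the adjusted p was 0.0314.

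Rfx2 (ENSMUSG00000024206, chromosome 17, 56775897 to 56831013, minus strand), a winged-helix activator of cilium and spermatid genes, was near the floor. It received 7 reads in each control library and 18, 13 and 1 reads in the Eef1g-cKO libraries. These gave 5.34, 3.67 and 3.92 CPM in control libraries and 14.6, 5.10 and 1.54 CPM in Eef1g-cKO, so that the groups overlapped. The gene did not pass the filter, and in the fit of all genes with a read its log2 fold change was 0.80 (SE 1.08) with an edgeR adjusted p of 0.653.

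**Figure D2:**
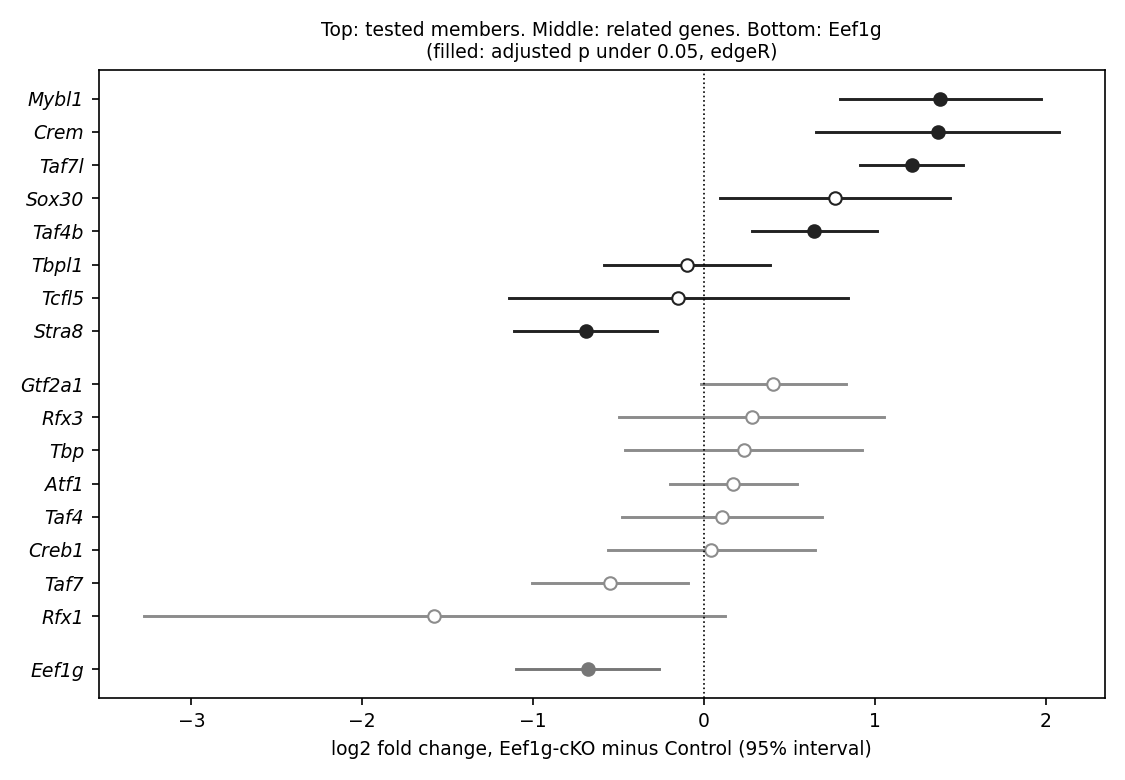
Log2 fold change, Eef1g-cKO minus control, with its 95% interval from edgeR for the 8 tested members (top, black), for tested paralogs of the germ cell members and for Eef1g (grey). Filled points had an adjusted p under 0.05. The intervals of Mybl1, Crem, Taf7l and Taf4b lie above 0 and that of Stra8 below 0, and no paralog shown is filled.

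**Figure D3:**
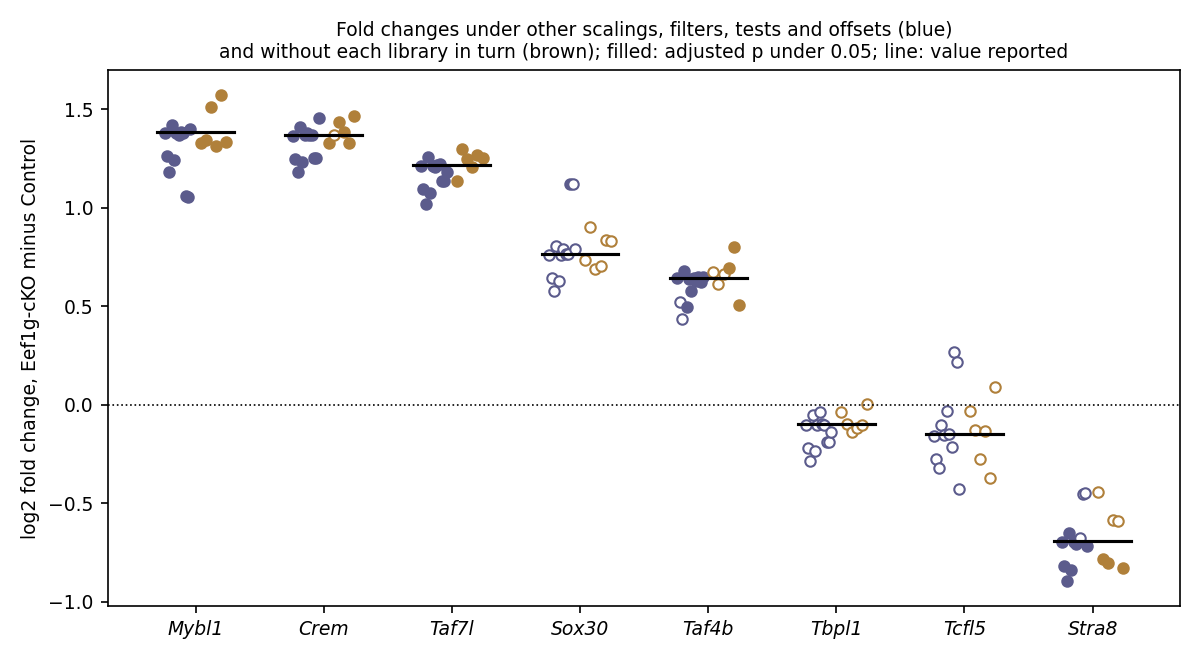
Log2 fold change of each tested member, Eef1g-cKO minus control, in the 12 other fits (blue) and in the 6 fits without 1 library (brown), with filled points at an adjusted p under 0.05 and a line at the reported value. Mybl1 and Taf7l are filled throughout and Crem in all but 1, Stra8 and Taf4b are filled in part, and Tcfl5 and Tbpl1 have no filled point, Tcfl5 lying on both sides of 0 and Tbpl1 below 0 in all but 1 fit.

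Members were also set against each other within each library, which needs no scaling between libraries. The ratio of Taf7l to Stra8 in FPKM was 0.777 to 1.51 in control libraries and 3.56 to 5.22 in Eef1g-cKO libraries. That of Taf4b to Stra8 was 0.197 to 0.308 and 0.577 to 0.694, and that of Mybl1 to Stra8 was 0.0223 to 0.0452 and 0.119 to 0.175. Crem to Stra8 was 0.0109 to 0.0201 in control and 0.0471 to 0.0785 in Eef1g-cKO, and Taf7l to Tbpl1 was 7.38 to 10.2 and 21.2 to 25.5. Taf7l to Taf4b was 3.94 to 5.43 and 5.61 to 8.24. None of these 6 ratios overlapped between genotypes. They were chosen after the values of the genes had been seen and are descriptions without a test.

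Several members have a paralog that acts in most cells, and the share of the germ cell gene in the summed FPKM of its family was compared. Taf7l made up 84.5 ± 0.565% of Taf7l and Taf7 in control and 94.9 ± 1.02% in Eef1g-cKO (SD, n = 3). Mybl1 made up 83.6 ± 9.70% of Mybl1, Mybl2 and Myb in control and 99.6 ± 0.734% in Eef1g-cKO, where Mybl2 had 2, 0 and 0 reads and Myb none. In control Mybl2 had 16, 9 and 7 reads and Myb 4, 9 and 0, and neither gene passed the filter on low counts. Crem made up 4.28 ± 0.106% of Crem, Creb1 and Atf1 in control and 9.39 ± 1.71% in Eef1g-cKO. In these 3 families every Eef1g-cKO share lay above every control share, and the p of the exact permutation test, 2-sided, was 0.1, which 3 libraries against 3 cannot go below, or 0.233 adjusted over the 7 families. The other 4 families overlapped. Taf4b made up 82.2 ± 1.99% of Taf4b and Taf4 in control and 86.8 ± 3.61% in Eef1g-cKO, and Tbpl1 89.7 ± 1.68% and 87.9 ± 3.33% of Tbpl1 and Tbp. Rfx2 made up 10.5 ± 2.95% and 15.8 ± 14.4% of Rfx1, Rfx2 and Rfx3, and Gtf2a1l, the germ cell version of a TFIIA subunit, 9.90 ± 4.47% and 2.85 ± 4.94% of Gtf2a1l and Gtf2a1. Eef1g-cKO replicate 1 was the only Eef1g-cKO library with Gtf2a1l reads, 8, and the share is 0 in the other two. The difference in the Gtf2a1l share, −7.04 percentage points in FPKM, was −2.01 points in read counts without gene length.

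**Figure D4:**
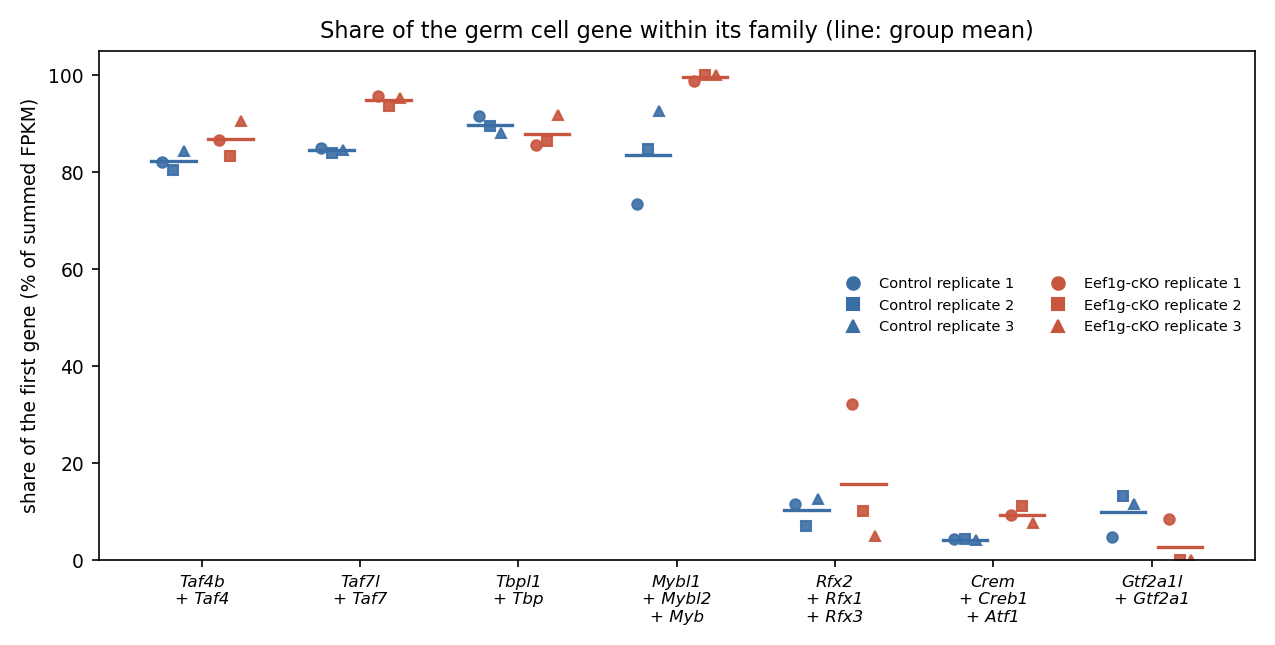
Share (%) of the germ cell gene, named first under each column, in the summed FPKM of its family, by library, with a line at the group mean. The shares of Taf7l, Mybl1 and Crem do not overlap between genotypes, and those of the other 4 genes do.

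None of the 8 tested paralogs in these families passed the threshold in edgeR, and 1 of them, Taf7, was lower at an unadjusted p under 0.05. The log2 fold change was 0.10 for Taf4 (adjusted p 0.853), 0.23 for Tbp (0.699), 0.04 for Creb1 (0.941), 0.17 for Atf1 (0.578), 0.28 for Rfx3 (0.677) and 0.41 for Gtf2a1 (0.201). Taf7 had the lower level in each Eef1g-cKO library, with a log2 fold change of −0.55 (edgeR adjusted p 0.101). Rfx1 had 9.92, 16.3 and 7.84 CPM in the control libraries against 2.43, 4.31 and 4.63 CPM, without overlap, and the largest log2 difference of the 8, −1.58 (SE 0.81, 95% interval −3.28 to 0.12, edgeR adjusted p 0.218), on 3 to 31 reads per library. Over the whole list of 23 paralogs of the members, 15 were tested, 1 rose and 2 fell. Among all tested genes 7.8% were called higher and 6.01% lower. The median log2 fold change of the list was 0.04. The one that rose was Taf7l2, a relative of Taf7l that is listed in the table as 4933416C03Rik. Its mean was 132 CPM in control libraries and 250 CPM in Eef1g-cKO, with a log2 fold change of 0.92 (SE 0.19) and an edgeR adjusted p of 0.0036. How reads matching both Taf7l and Taf7l2 were counted is not stated, so their values are not fully separate. Tcf3, a bHLH factor of many tissues, fell with a log2 fold change of −0.98 (SE 0.23) at an adjusted p of 0.0073 in edgeR, and Sox12, named after its values were seen since it averaged under 50 reads, fell as well. Without control replicate 3 none of the list was called lower, and without control replicate 1 or 2 or Eef1g-cKO replicate 1 the number was 1.

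Genes of the meiotic entry programme, in which STRA8 and MEIOSIN act, were examined next. The list was drawn from general knowledge, and targets of STRA8 and MEIOSIN were not marked in it. Of 20 such genes, 19 were tested, 12 rose and none fell, against 7.8% higher and 6.01% lower among all tested genes. The median log2 fold change of the list was 0.85. At an unadjusted p under 0.05 the numbers in edgeR were 13 and 0, and DESeq2 and limma-voom called 0 lower as well. Dmc1, the meiotic strand exchange recombinase, rose most, from 359 ± 6.01 to 1317 ± 320 CPM (SD, n = 3; log2 fold change 1.87, SE 0.17, edgeR adjusted p 2.26e-06). Hormad1, which encodes a protein of the chromosome axis, rose by a log2 fold change of 1.72, Smc1b, for a meiotic cohesin subunit, by 1.57, and Ugt8a, for an enzyme of galactolipid synthesis, by 1.30. The 7 tested genes that did not pass the threshold had log2 fold changes on both sides of 0, 1 of them negative. Of the L/Z markers, whose summed level is given above, 7 are also in this group.

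Genes that act beside STRA8 in meiotic entry, here called entry partners, were listed together with genes of retinoic acid signalling and of spermatogonia. The list moved in both directions. Of 27 genes, 14 were tested, 3 rose and 6 fell, against 7.8% higher and 6.01% lower among all tested genes. The median log2 fold change was −0.31, and 5 of the 27 had no read in any library. Those that rose encode proteins of RNA regulation needed at meiotic entry: Meioc with a log2 fold change of 1.21 (SE 0.19) at an adjusted p of 0.00036 in edgeR, Ythdc2 with 0.87 and Rbm46 with 0.51. Among those that fell were Ccnd2, a cyclin of spermatogonia, with −2.37, Sohlh1, a spermatogonial bHLH factor, with −1.41, and Dmrt1, which holds back meiotic entry in spermatogonia, with −0.73. The other 3, Aldh1a1, Crabp1 and Cyp26b1, act in retinoic acid synthesis, binding and breakdown, averaged under 50 reads and were named after their values were seen. Of this list, Dmrt1 and Sohlh1 are also among the markers of spermatogonia given above, 6 of whose 7 tested genes fell. Among somatic markers, 4 of 5 tested peritubular and stromal genes and 2 of 4 tested Sertoli cell genes fell, no Leydig cell gene was tested, and the 1 tested blood cell gene did not pass. At a minimum of 10 reads in every library, 3 genes of the list were called lower.

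A list of 20 genes of E2F and Polycomb repressor complexes, which hold germ cell genes silent in other cells, and of chromatin enzymes was examined. The enzyme genes were Dnmt1 and Dnmt3b for DNA methyltransferases, Ehmt1, Ehmt2 and Setdb1 for histone methyltransferases, and Hdac1 and Hdac2 for histone deacetylases. Of these, 19 were tested, none rose and 4 fell, against 7.8% higher and 6.01% lower among all tested genes. The median log2 fold change of the list was −0.13. Both DNA methyltransferase genes of the list fell, of which Dnmt3b is also a marker of spermatogonia here. Dnmt3b had a log2 fold change of −1.44 (SE 0.33) at an adjusted p of 0.0061 in edgeR and Dnmt1 of −0.90 (SE 0.26, edgeR adjusted p 0.0237). Cbx3, a heterochromatin protein, fell by 1.33 on the log2 scale. The fourth, Ehmt2, a histone methyltransferase that averaged just under 50 reads, was named after its values were seen and fell by 2.10. Of the 4 that fell, all but Cbx3 are thus among the enzyme genes named above. At an unadjusted p under 0.05 in edgeR 3 genes were higher, DESeq2 called 0 higher and limma-voom 3. Without control replicate 1 the number called lower was 1, and 1 or 2 genes were called higher without Eef1g-cKO replicate 2 or 3.

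The general initiation machinery that TAF4B, TAF7L and TBPL1 join was tested in 23 of 26 genes, of which 5 rose and 2 fell. Among all tested genes 7.8% were called higher and 6.01% lower. The median log2 fold change of the list was 0.28. Polr2a, for the largest subunit of RNA polymerase II, rose by 1.06 on the log2 scale (SE 0.17, edgeR adjusted p 0.00036), Gtf2b, for TFIIB, by 1.05, Gtf2h1, for a TFIIH subunit, by 0.86 and Taf9b, for a TFIID subunit, by 0.83. Polr2e and Polr2l, for small subunits that RNA polymerases share, fell by 1.55 and 1.20. The number called higher was 3 without control replicate 1 or Eef1g-cKO replicate 2 and 8 without Eef1g-cKO replicate 3, and the number called lower was 1 without control replicate 3.

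Partners of the prophase factors were tested in 14 of 24 genes, of which 3 rose and 2 fell. Among all tested genes 7.8% were called higher and 6.01% lower. The median log2 fold change of the list was 0.01. Lin9, for a subunit of the MuvB complex with which MYB proteins act, and Foxj3, for a forkhead factor, each had a log2 fold change of 0.86, and Scml2, for a germ cell Polycomb protein, of 0.83. Tdrd5, a piRNA pathway gene, had −1.22 and the coactivator gene Crebbp −0.60. The number called lower was 0 without control replicate 1 or 2 or Eef1g-cKO replicate 2, and 1 without control replicate 3 or Eef1g-cKO replicate 1.

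In the pachytene programme, a list drawn from general knowledge in which targets of A-MYB were not marked, most tested genes did not pass the threshold. Of 29 genes, 16 were tested, 2 rose, 2 fell and 12 did not pass, against 7.8% higher and 6.01% lower among all tested genes, and the median log2 fold change was −0.29. Ccnb3, a cyclin of early meiotic prophase, rose by 1.48 on the log2 scale (SE 0.19, edgeR adjusted p 7.09e-05) and Tex101, for a germ cell surface protein and also in the entry programme list, by 0.82. Meig1, for a protein of spermatid development, fell by 1.94. Piwil1, which encodes the PIWI protein of pachytene piRNAs and was named after its values were seen, had 34, 22 and 30 reads in control and 0, 1 and 0 reads in Eef1g-cKO. Of the 11 markers of pachytene and later cells given above, 8, Piwil1 among them, are also in this list. Only 3 of the 11 were tested, and 1 fell. The number called higher was 1 without control replicate 2 or 3, and the number called lower was 1 without control replicate 1 or 2. A list of 24 spermatid genes was also drawn from general knowledge, and targets of CREM, RFX2, SOX30 and TBPL1 were not marked in it. Only 1 was tested, with a log2 fold change of −0.20. It passed neither the adjusted nor an unadjusted threshold of 0.05 in edgeR nor the threshold in DESeq2 or limma-voom. Every Eef1g-cKO library lay below every control library for this gene, as in 18.1% of all tested genes. Of the 24, 11 had no read in any library and 15 had no more than 3 reads in any library.

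**Figure D5:**
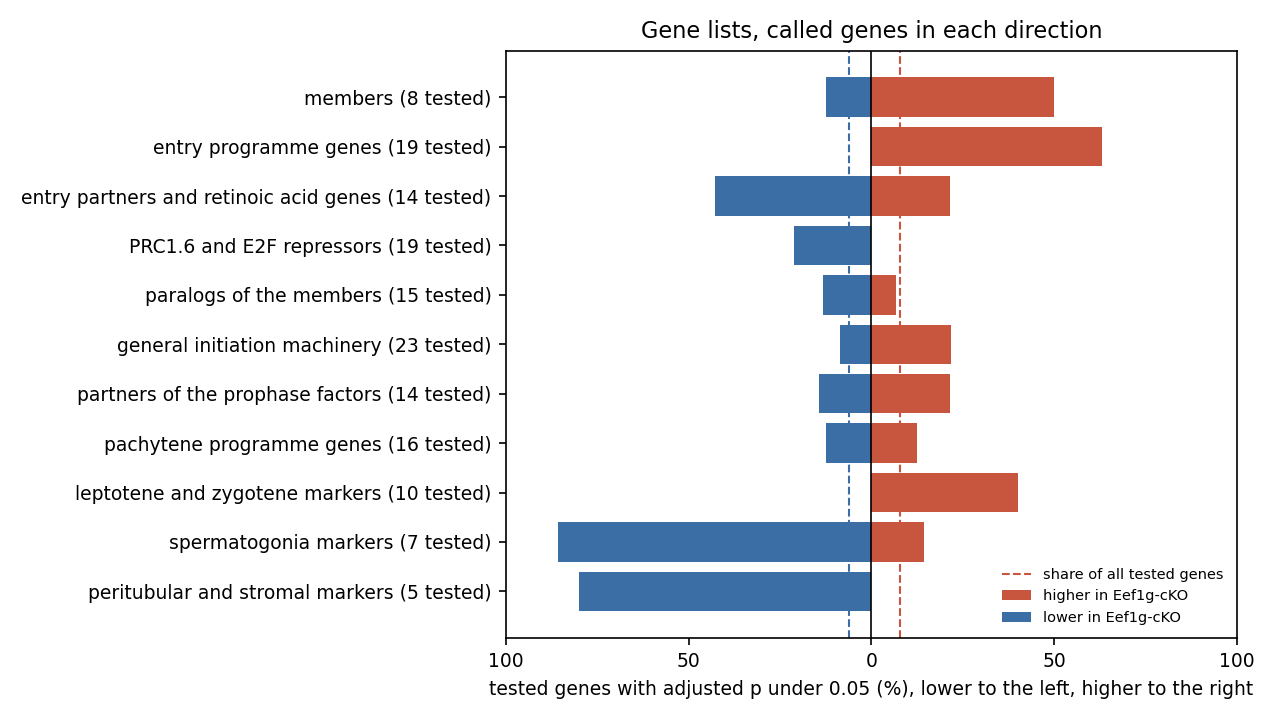
Share of tested genes (%) called higher (red, right) and lower (blue, left) in Eef1g-cKO at an edgeR adjusted p under 0.05 for each gene list, with the number tested, and dashed lines at the shares of all tested genes. Members, entry programme genes and L/Z markers extend mainly to the right, and markers of spermatogonia and of peritubular and stromal cells mainly to the left. Entry partners, initiation machinery, partners of the prophase factors and pachytene programme genes pass the dashed lines on both sides. Paralogs and repressor genes pass the line on the left only.

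Over the 6 libraries, the genes whose log2 CPM was most like that of Mybl1, among 4707 genes averaging 50 reads or more, were Msh4 (Pearson r 1.000), Cpd (0.994) and Sh3glb1 (0.993), and 156 genes exceeded an r of 0.95. Those most like Stra8 were Rps9 (0.993), Hsp90ab1 (0.989) and Tbrg4 (0.988), and those most like Tcfl5 were Zwint (0.985), Uqcrfs1 (0.984) and Ppid (0.978), with 17 and 16 genes over 0.95. Among the members, Taf7l had an r of 0.983 with Crem, 0.963 with Mybl1 and 0.960 with Sox30, and Stra8 of −0.861 with Crem. These values are descriptions over 6 libraries that share a genotype in groups of 3, a depth and a composition.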

How the data were processed

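RNA-seq was performed on polyadenylated RNA of sorted L/Z spermatocytes, amplified as full-length cDNA without molecular identifiers. The authors trimmed reads with fastp, aligned them to GRCm38 (mm10) with HISAT2 2.2.1 and counted them per gene with featureCounts 2.0.6. The deposited table holds raw counts for each Ensembl gene in 6 libraries, with gene position and length. Strand setting and treatment of multi-mapping reads are not stated. Of the gene IDs, 54409 were found in GENCODE vM21, 98.3% with the same coordinates, which gave transcript GC content and overlapping genes.

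Counts were tested with edgeR 4.0.16 in R 4.3.3: filterByExpr (minimum count 10, minimum total 15) kept 8513 genes with 98.1% of reads, TMM factors scaled the libraries, and the quasi-likelihood test (robust) had a term for genotype alone, with Benjamini-Hochberg adjustment. The submitters' processing notes name DESeq2. The procedure was tested on simulated data. Library totals of 763133 to 2617648 reads limit the precision, and intervals and floors cover counting or replicate error only. No 2 libraries agreed within sampling noise. Replicate numbers were taken from the titles, and same-numbered libraries did not deviate together. Alternatives were other scalings (RLE, upper-quartile, totals), filters, DESeq2 1.42.0, limma-voom (limma 3.58.1), non-robust estimation, thinning, a GC content offset, a replicate block and leaving out each library.

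The members, the gene lists and their tests were chosen with earlier results of these data known. All members are named. From each list, called genes averaging 50 reads or more are named, at most 4 per direction taken by the size of the log2 fold change, and the paralogs whatever they did. Other genes carry a remark. Likeness was searched for Stra8, Mybl1 and Tcfl5. Promoters came from RefSeq (GRCm38.p6) and were searched for 6 of the 10 members, leaving out Taf4b and Crem on chromosome 18.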

Additional observations from a re-analysis of the deposited data

How the results depend on the processing

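The number of members called higher was 4 as reported, 5 with the GC content offset, which added Sox30, and 3 under upper-quartile scaling, library totals alone and a required absolute log2 fold change over 1. Leaving out each library in turn gave 2 to 4 members higher, with the lowest number without control replicate 2, and 0 to 1 members lower. The number called lower was 1 as reported and 0 with the GC content offset, with the replicate block, with both together and with the fold change limit, each time through Stra8. Its log2 fold change kept its direction throughout, at −0.90 to −0.44. The block on replicate number gave Stra8 a log2 fold change of −0.68 with an edgeR adjusted p of 0.0579, and with the GC content offset added −0.45 and 0.216, but replicate numbers mark no shared animal or day in the labels, the deviations of same-numbered libraries had correlations of −0.04, 0.02 and −0.05, and pairing is not part of the design. It changed no call of the other members. Leaving out each library gave log2 fold changes of −0.37 to 0.089 for Tcfl5, −0.14 to 0.0024 for Tbpl1, and a change of −2.84 to 10.7 percentage points in the share of Rfx2 in its family, negative without Eef1g-cKO replicate 1. The direction of Tcfl5 turned to 0.27 with the GC content offset, 0.22 with the block and the offset, and those of Tcfl5 and Tbpl1 turned without Eef1g-cKO replicate 3, none passing the threshold. Over all genes, 664 were called higher and 512 lower as reported, 374 to 385 and 238 to 239 without 1 control library, 436 and 300 with block and offset, and 447 and 324 after thinning. Without Eef1g-cKO replicate 1 the numbers were 537 and 436, without replicate 2 634 and 570, and without the shallow replicate 3 834 and 668. Of 288 counts recomputed over the other lists, 247 were within 1.5 times the reported count, with counts of 0 that stayed at 0 included. The causes were not tested. Low read counts limit what can be said of Meiosin, Rfx2, Tcfl5 and the spermatid genes, and the reason for these low counts was not tested.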
